A study of Bos taurus with 6 samples.

Results

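The genes of cholesterol synthesis and its sterol sensors were read from the mRNA counts of bovine intramuscular fat (IMF) as 8 genes chosen by symbol. They are the transcription factor gene SREBF2, its inhibitor INSIG1, and the enzyme genes HMGCS1, IDI1, FDFT1, SQLE, LSS and DHCR7. All 8 were in the table of 25444 genes and among the 17752 genes with at least 1 count, so none was lost to a filter on low values. All 8 symbols were also found in a RefSeq table of cattle genes.

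The study compared Qinchuan males that had been castrated (steers) with males left intact (bulls), to look for genes and miRNAs tied to IMF deposition. Both groups were slaughtered at 24 months of age, and the steers had been castrated by surgery at 6 months. All animals came from 1 sire and were weaned and fed alike, and the fat was dissected from the sternomandibularis, a muscle of the neck. The mRNA data were 1 library for steers and 1 for bulls, made from RNA pooled over 6 animals in the study's methods and over 3 in the sample labels. The miRNA data were 2 libraries for steers and 2 for bulls, with 3 animals each in the methods and 1 each in the labels.

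Cells make cholesterol from acetyl-CoA by a long chain of enzymes, through mevalonate, farnesyl diphosphate, squalene and lanosterol. When sterols in the endoplasmic reticulum fall, SCAP carries the SREBF2 protein (SREBP-2) to the Golgi, where proteases release the part that enters the nucleus and switches on the genes of the chain. When sterols are plentiful, INSIG proteins hold SCAP back, and oxysterols act through LXR receptors on genes of sterol export. Adipose tissue is a store of free cholesterol.

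A pair of miRNAs is encoded with the sterol regulators, and their sequences are shown because they share the seed through which they bind targets. In the RefSeq table (ARS-UCD2.0), the precursor of miR-33a lies within the span of SREBF2 and that of miR-33b within the span of SREBF1. The mature sequences are those the study lists for cattle, written 5′ to 3′, with the seed (bases 2 to 8) in capitals:
bta-miR-33a: gTGCATTGtagttgcattgca
bta-miR-33b: gTGCATTGctgttgcattgc
They are 21 and 20 bases long and have the same seed. Over the 20 bases compared, counted from 1 at the 5′ end, they differ by 2 substitutions, T9C and A10T, with the base of miR-33a first.

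The mRNA counts summed to 12677375 in steers and 9868415 in bulls. Counts were divided by size factors (1.04 in steers, 0.959 in bulls) that follow the median gene. Scaling by total counts in their place lowers every log2 fold change by 0.24. Calls needed both a change of over 2-fold and an adjusted p under 0.05 in an exact binomial test (two-sided, Benjamini-Hochberg over all genes tested). There was no replicate of an mRNA library, so each test compared a pair of libraries and not castration itself, and the 95% intervals cover counting error only. In these terms 776 genes, or 4.37% of those tested, were called higher in steers, and 1444, or 8.13%, were called lower. Under total counts the numbers were 539 and 2006, so that the share of calls that were higher went from 35.0% to 21.2%.

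Of the 8 genes, 4 were called higher in steers and 0 lower, against the background of 4.37% and 8.13% for all genes. These 4 were INSIG1, SQLE, IDI1 and LSS. HMGCS1, DHCR7 and SREBF2 had adjusted p-values under the threshold but differed by less than 2-fold, and the interval of FDFT1 included no change. The median log2 fold change was 1.05 over the 8 genes and 0.01 over all genes tested. Under total counts it was 0.81 and −0.23, and LSS, at 0.95, was no longer called. With an assumed biological coefficient of variation between pools of 0.2 (edgeR exact test) INSIG1 and SQLE were called, and with 0.4 none of the 8 was. Of all 17752 genes tested, 368 were called higher with 0.2 and 52 with 0.4. Together the 8 genes had 4565 counts in steers and 2308 in bulls, or 360 and 234 CPM (counts divided by the library total and put on a common scale). Of these sums INSIG1 alone made up 97.6 and 14.7 CPM, and the 6 enzymes together 158 and 114. In bulk tissue, fewer cells of a type and less RNA per cell cannot be told apart.

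The regulators stood far apart from each other. SREBF2, the factor that switches the chain on, had 1329 counts in steers and 1035 in bulls, which is 105 CPM in both libraries. Its log2 fold change was 0.24 (95% interval 0.12 to 0.36, adjusted p = 0.00031, exact binomial test), and under total counts it was −0.0007. INSIG1, which retains SCAP and is itself a target of SREBP-2, had 1237 counts in steers and 145 in bulls. This was 97.6 and 14.7 CPM, and 7.84 times as much in steers after scaling (interval 6.59 to 9.38). Its log2 fold change of 2.97 (interval 2.72 to 3.23, adjusted p = 8.8e-195, exact binomial test) ranked 215 from the top of the 14540 genes with at least 10 counts over both libraries. Per SREBF2 count, INSIG1 had 0.140 counts in bulls and 0.931 in steers.

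**Figure D1:**
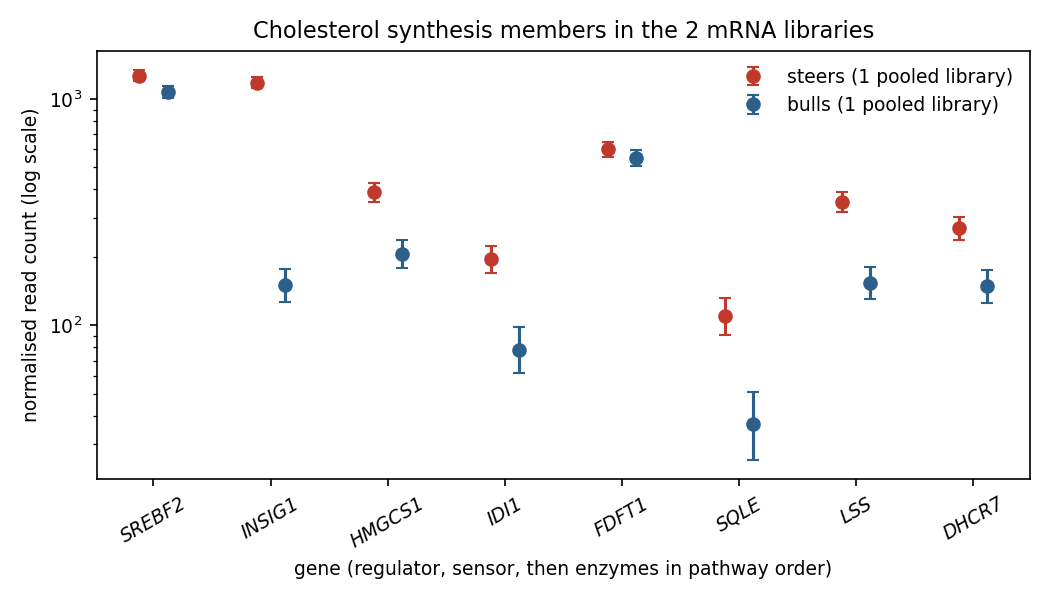
Counts divided by size factors (log axis) of the 8 genes in the steer library and the bull library, with bars for the 95% counting interval. INSIG1 has the widest gap, 1186 in steers and 151 in bulls, while the points of FDFT1, 600 and 551, lie side by side.

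HMGCS1 makes HMG-CoA at the start of the chain. It had 404 counts in steers and 199 in bulls, or 31.9 and 20.2 CPM. On the log2 scale the difference was 0.90 (interval 0.65 to 1.15, adjusted p = 1.9e-12, exact binomial test). IDI1, which turns isopentenyl diphosphate into its isomer, had 205 counts against 75, a log2 difference of 1.33 (interval 0.94 to 1.73). Both were higher in steers, and IDI1 alone of the pair passed the fold threshold, although its interval begins below 1.

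FDFT1, squalene synthase, joins farnesyl diphosphate into squalene and is the first step given over to sterols. It had 626 counts in steers and 528 in bulls, or 49.4 and 53.5 CPM. On the log2 scale the difference was 0.12 (interval −0.05 to 0.29, adjusted p = 0.287, exact binomial test). The interval, which holds counting error alone, reaches up to 22.5% more in the steer library, and under total counts the value was −0.12. SQLE, squalene epoxidase, takes the next step, and it is a rate-limiting enzyme of the later chain. It had the fewest reads of the 8, with 115 counts in the steer library and 35 in the bull library, a log2 difference of 1.59 (interval 1.04 to 2.18, adjusted p = 8.2e-09, exact binomial test). LSS closes the ring to lanosterol, and it had 368 counts against 148, a log2 difference of 1.19 (interval 0.91 to 1.48). The span of LSS overlaps that of a lncRNA gene in the RefSeq table, and whether reads were counted by strand is not given in the sources used here. DHCR7, which reduces 7-dehydrocholesterol to cholesterol, had 281 counts against 143, a log2 difference of 0.85 (interval 0.56 to 1.15). Thus neighbouring steps differed, with FDFT1 near 0 beside higher SQLE and LSS.

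The 95% intervals of the log2 fold changes were compared in all 28 pairs of the 8 genes, and in 17 pairs they did not overlap. These intervals hold counting error alone, from 1 library per group, and the share over pairs of all genes was not counted. INSIG1 lay above each of the other 7. SQLE, IDI1, LSS, HMGCS1 and DHCR7 each lay above both SREBF2 and FDFT1. The intervals of these 5 overlapped among themselves, which alone does not decide their order, and the order was not tested. SREBF2 and FDFT1 overlapped each other.

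A ratio of 2 genes within a library does not depend on scaling, so each gene was also set against SREBF2. Counts per SREBF2 count were 0.0865 in steers and 0.0338 in bulls for SQLE, an odds ratio of 2.56 (exact 95% interval 1.72 to 3.88). The odds ratio was 6.64 for INSIG1 (5.48 to 8.09), 2.13 for IDI1 (1.60 to 2.85) and 1.94 for LSS (1.57 to 2.40). It was 1.58 for HMGCS1 (1.31 to 1.92) and 1.53 for DHCR7 (1.23 to 1.92). FDFT1, at 0.923 (0.800 to 1.07), was the one gene whose interval included 1. By these ratios 6 genes had more reads relative to SREBF2 in the steer library, whatever the scaling. Of all genes tested, 35.8% had a log2 fold change above that of SREBF2. The share whose interval would exclude 1 was not counted, and the intervals hold counting error alone, from 1 library per group.

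**Figure D2:**
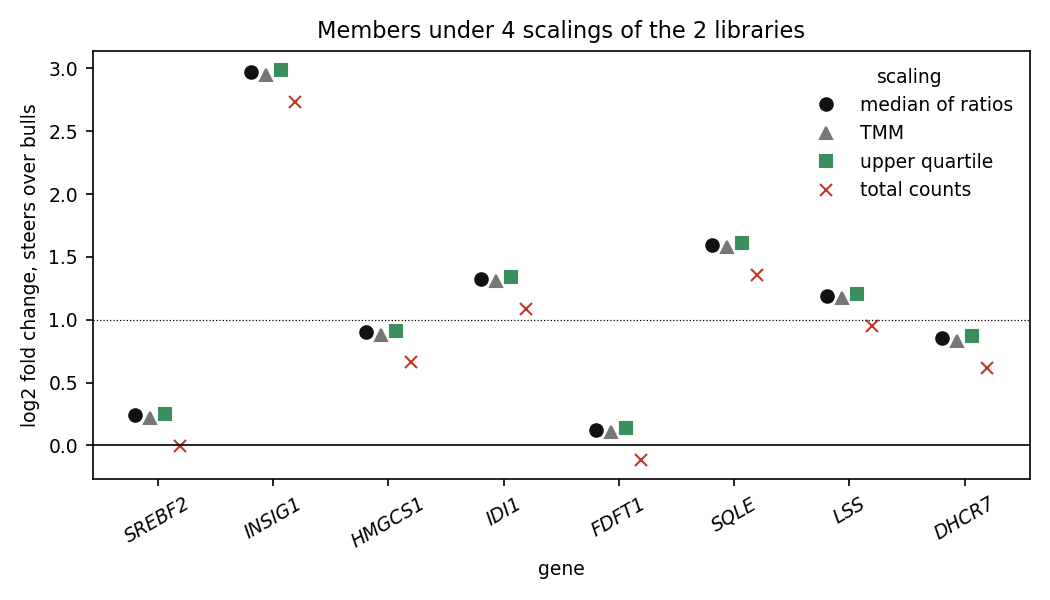
Log2 fold change (steers over bulls) of the 8 genes under median-of-ratios, TMM, upper-quartile and total-count scaling. The first 3 lie close together, while total counts move each gene down by 0.24 and take SREBF2 to −0.0007 and FDFT1 to −0.12.

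**Figure D3:**
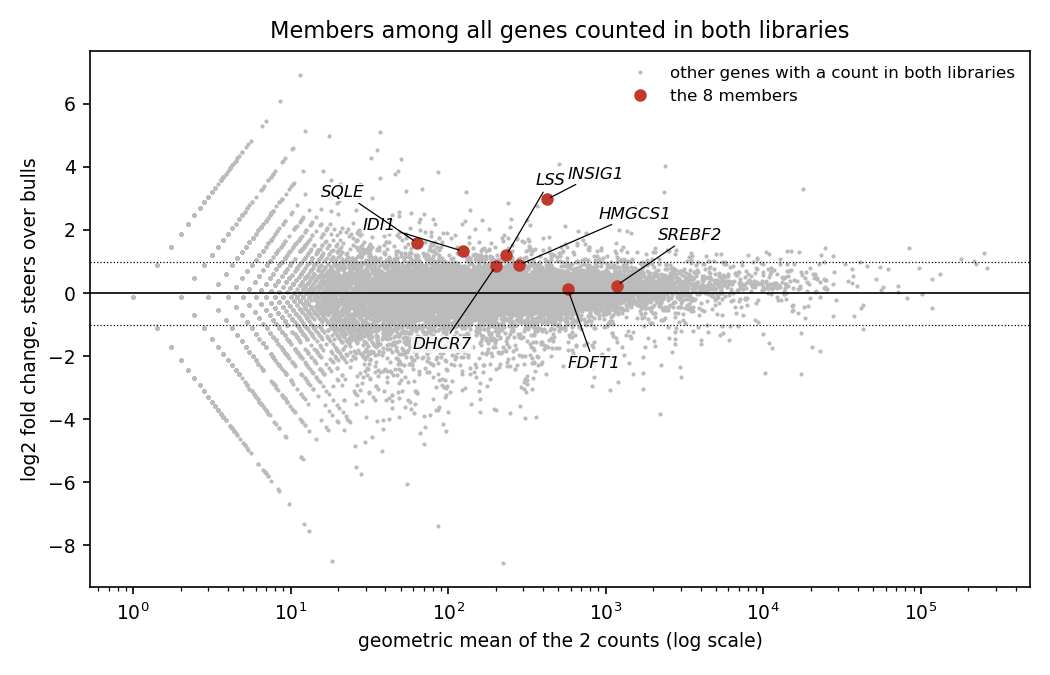
Log2 fold change against the geometric mean of both counts (log axis) for genes counted in both libraries, with the 8 genes as large red points and dotted lines where a change reaches 2-fold. INSIG1 sits at 2.97, with 2.50% of all genes tested above it, and SREBF2 and FDFT1 lie near 0.

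A further 13 enzymes of the chain were read from the same test. Of these, 3 were called higher and 0 lower, beside 4.37% and 8.13% of all genes, and 11 of 13 log2 fold changes were above 0 (7 of 13 under total counts). Their median was 0.24, or 0.01 under total counts, beside 0.01 and −0.23 for all genes. The called genes were MVD, PMVK and MSMO1, of which MSMO1 was no longer called under total counts (0.82). MVD, which makes isopentenyl diphosphate, had 303 steer counts and 108 bull counts, a log2 difference of 1.37 (interval 1.04 to 1.70). PMVK, which phosphorylates phosphomevalonate, had 189 and 73 counts and a value of 1.25 (0.85 to 1.66). MSMO1, a C-4 methylsterol oxidase, had 238 and 105 counts and a value of 1.06 (0.72 to 1.40).

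ACAT2, which makes acetoacetyl-CoA, had 439 steer counts and 202 bull counts and stood just under the fold threshold at 1.00. Log2 fold changes were lower for MVK (0.02), FDPS (0.18), TM7SF2 (0.31), NSDHL (0.24), EBP (0.03) and SC5D (0.01). CYP51A1, the lanosterol demethylase, had 141 and 72 counts and a value of 0.85. The 2 values below 0 were those of LBR (−0.25), a sterol reductase of the nuclear membrane, and HSD17B7 (−0.43, interval −0.76 to −0.10), a sterol ketone reductase. Over these 13 and the 6 enzymes among the members, 19 in all, 6 were called higher and 0 lower (background 4.37% and 8.13%), with a median of 0.85. Under total counts LSS and MSMO1 lost their calls and the median was 0.61.

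**Figure D4:**
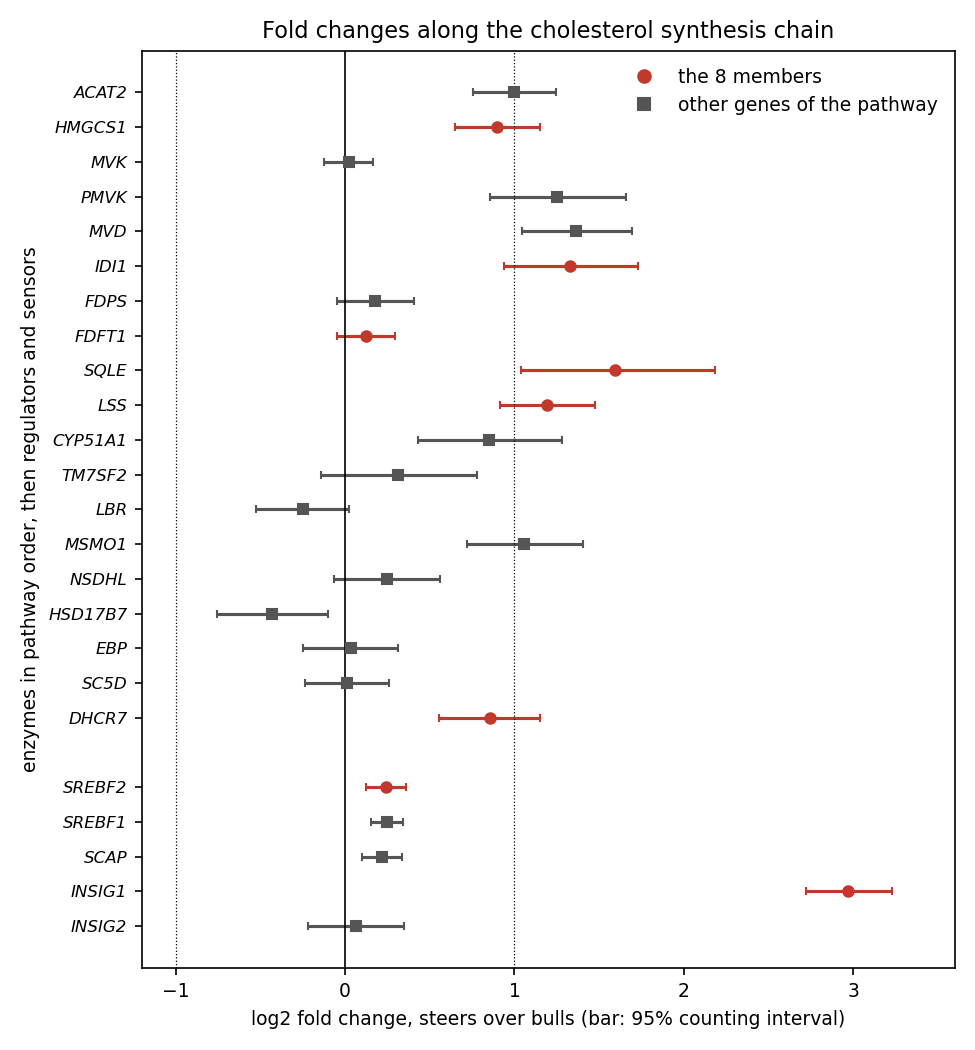
Log2 fold change (steers over bulls) with 95% counting intervals for the 19 enzymes in pathway order, then SREBF2, SREBF1, SCAP, INSIG1 and INSIG2, with the 8 chosen genes in red and dotted lines at the fold threshold. Values run from −0.43 for HSD17B7 to 1.59 for SQLE among enzymes, and INSIG1 at 2.97 stands alone on the right.

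Of 9 further genes of sensing and SREBP processing 0 were called, beside the background of 4.37% and 8.13%. SREBF1, which drives fatty acid synthesis, had 1999 steer counts and 1548 bull counts, a log2 difference of 0.25. SCAP had 1349 and 1066 counts and a value of 0.22. INSIG2, the second INSIG protein, had 222 and 195 counts and a value of 0.06 (interval −0.22 to 0.35), well below the 2.72 at which the interval of INSIG1 begins. The site-1 protease gene MBTPS1 was at 0.20. Under total counts SCAP, INSIG2 and MBTPS1 were below 0, at −0.02, −0.17 and −0.04. ERLIN1, which acts in sterol-driven protein breakdown at the endoplasmic reticulum, was at 0.81, the highest value of the list. ERLIN2 was at −0.01 and RNF139 at 0.30 (interval −0.005 to 0.61). The median of the list was 0.22 (−0.02 under total counts).

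Of 5 genes of sterol uptake and movement in the table, 1 was called lower and 0 higher, beside 8.13% and 4.37% of all genes. LIPA, the lysosomal lipase that frees cholesterol from taken-up esters, had 350 steer counts and 938 bull counts and a value of −1.54 (−1.73 to −1.37). SCARB1, a receptor for HDL, was at −0.88, and MYLIP, a ubiquitin ligase induced by LXR, was at −0.59. NPC2 was at −0.45, and NPC1, at 0.25 (0.01 under total counts), was the 1 value of the list above 0. The median of the list was −0.59. STARD4, also on the list, was not found by its symbol among the counted genes and so was not analysed.

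Of 8 genes of oxysterol response and ester storage, 3 were called lower and 0 higher, beside 8.13% and 4.37% of all genes. With an assumed coefficient of variation of 0.2 the number lower was 2, and with 0.4 it was 0. Of all 17752 genes tested, 762 were called lower with 0.2 and 93 with 0.4. ABCA1, an exporter of cholesterol and a known LXR target, had 727 steer counts and 1717 bull counts, a log2 difference of −1.36 (interval −1.49 to −1.24). ABCG1, a second exporter, had 34 and 88 counts and a value of −1.49 (−2.11 to −0.91). CH25H, which makes 25-hydroxycholesterol, had 45 and 87 counts and a value of −1.07 (−1.63 to −0.54). The LXR receptor genes NR1H3 and NR1H2 were at 0.31 and 0.12, the 2 values of this list above 0. Under total counts they were at 0.07 and −0.12. The list's median was −0.74, and −0.98 under total counts. Of 8 genes on other branches of the mevalonate chain, which make dolichol, ubiquinone and prenyl groups, 0 were called, and their median was 0.00. The gene with the lowest value there was GGPS1 (−0.81), which makes geranylgeranyl diphosphate.

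Markers of other cell types moved between the same pair of libraries, and their part in these differences was not tested. The counts of calls that follow stand beside 4.37% of all genes called higher and 8.13% called lower. Calls rest on the size factors, whereas the summed levels in CPM rest on library totals, which puts steer values lower. All 8 T lymphocyte markers were called lower in steers, with a summed level of 9.70 CPM against 90.4 in bulls, and CD3G was at 0 counts in steers. Of 7 myeloid markers 5 were called lower (1595 against 4232 CPM), and myeloid cells are known to express ABCA1, ABCG1, CH25H and LIPA. Of the B lymphocyte markers, 1 of 3 with counts was called lower (1.89 against 9.42 CPM), and MS4A1 and CD79B were at 0 in both libraries. Of 6 fibroblast and matrix markers 2, COL1A1 and COL3A1, were called higher (90228 against 54329 CPM, most of it from collagen genes). Log2 fold changes were above 0 for 5 of the 6, with DCN at 0.04, and PDGFRA was at −0.48. Of 5 epithelial markers 4 were called higher (27.2 against 5.17 CPM), and EPCAM had 8 counts in steers and 0 in bulls. Of 10 muscle markers 1 was called higher and 2 lower (2453 against 4327 CPM), and of 5 endothelial markers 0 were called (724 against 879 CPM). The labelled tissue had its adipocyte markers in both libraries (2398 CPM in steers and 3373 in bulls over 7 genes), of which CIDEA, at 2.75, was called higher and FABP4, at −1.06, lower. With size factors in place of totals, the log2 ratio of summed counts was −0.25 for adipocyte, −0.58 for muscle and −0.04 for endothelial markers.

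The miRNA libraries were fitted together over 1073 of 8800 sequences with edgeR's quasi-likelihood test (TMM factors). Their totals ran from 6556511 to 10452582 counts. Of the sequences tested, 76, or 7.08%, were called higher in steers and 76, or 7.08%, lower. With upper-quartile factors 101 were higher and 52 lower, and under total counts 1 was higher and 0 lower, with 298 at an unadjusted p under 0.05 (edgeR). Leaving out a library gave 20 to 110 higher and 6 to 45 lower, with the fewest calls, 20 and 6, without steer library 2. The p-values rest on the spread between libraries of the same group, with information shared over all sequences tested. That spread may hold technical differences as well as those between animals, and these were not separated.

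bta-miR-33b, which lies in SREBF1, had 155 and 98 counts in the steer libraries and 432 and 345 in the bull libraries. In TMM-normalised CPM, used for all miRNA levels, the values were 19.9 and 11.4 against 57.1 and 37.0. Both bull libraries were thus above both steer libraries, but the share of all sequences that separate this way was not counted. The means were 15.7 ± 5.97 CPM in steers and 47.1 ± 14.3 in bulls (SD, n = 2 each). Its log2 fold change was −1.59 with a standard error of 0.49 (edgeR adjusted p = 0.0149), and it was called lower, as were 7.08% of all sequences. This call depended on the scaling, the filter and the libraries used. The edgeR adjusted p was 0.0723 under total counts and 0.0649 with no filter on low counts. Without steer library 1, steer library 2 or bull library 1 the adjusted p was 0.150, 0.652 or 0.208 (edgeR), and without bull library 2 it was 0.0037. The direction held in all 4.

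bta-miR-33a, which lies in SREBF2, had 28 and 22 counts in the steer libraries and 59 and 58 in the bull libraries, or 3.59 and 2.57 CPM against 7.80 and 6.22. Both bull libraries were again above both steer libraries, and this too was not set against the share over all sequences. The means were 3.08 ± 0.724 and 7.01 ± 1.12 CPM (SD, n = 2 each). Its log2 fold change was −1.18 with a standard error of 0.54, and it did not pass the test (edgeR adjusted p = 0.125). The reads of a human miR-33b entry in the same table came to 1 count in 1 library and did not pass the filter on low counts.

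Set side by side, SREBF1 was at 0.25 and miR-33b at −1.59, and SREBF2 was at 0.24 and miR-33a at −1.18. Under total counts the values were 0.01 and −2.06 for the first pair and −0.0007 and −1.66 for the second. ABCA1, a textbook target of miR-33, was at −1.36. No test joins the mRNA and miRNA libraries, and targets were not analysed here.

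**Figure D5:**
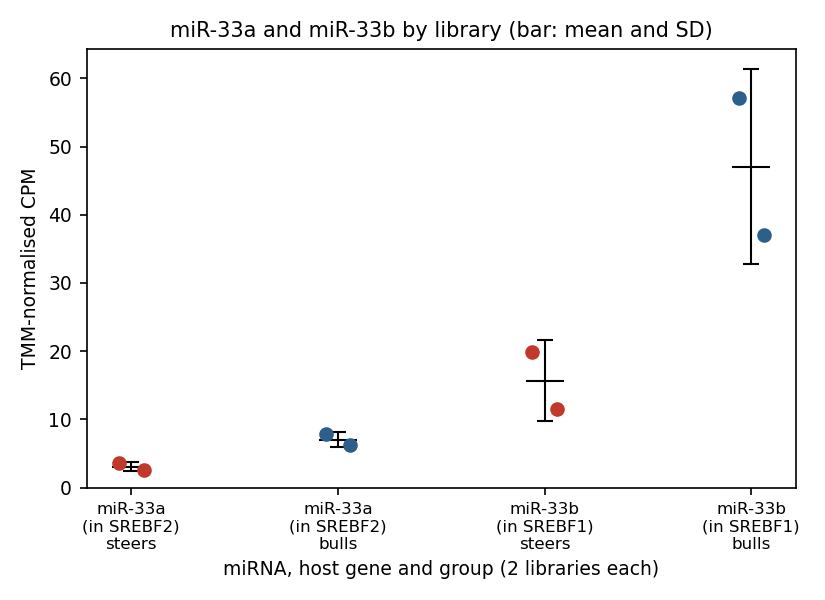
TMM-normalised CPM of bta-miR-33a and bta-miR-33b in each of the 4 miRNA libraries (points), with bars for the mean and SD of each group. In both miRNAs the 2 bull libraries lie above the 2 steer libraries, at 57.1 and 37.0 against 19.9 and 11.4 CPM for miR-33b. The share of all sequences that separate this way was not counted.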

How the data were processed

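The mRNA libraries (Ion Proton, 1 pooled per group) and miRNA libraries (HiSeq, 2 per group) were grouped by the treatment in the labels. The deposited values are raw counts. Per the paper's methods, the authors aligned mRNA reads to the bovine genome with MapSplice and miRNA reads with BWA. The submitters' processing notes name BWA and a human build, and the counting program is not given in the sources used here.

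Scaling of mRNA used size factors from the median of ratios (numpy 2.4.6), and counts were compared by an exact binomial test, doubling the smaller tail, in scipy 1.17.1. Ratios to SREBF2 are conditional odds ratios. Fold changes carry 95% Clopper-Pearson intervals. miRNA counts were filtered by filterByExpr and tested with edgeR 4.0.16 under R 4.3.3. Steps were tested on simulated data. Alternatives were other scalings, other filters, assumed biological coefficients of variation (BCV) of 0.1, 0.2 and 0.4, no fold threshold, DESeq2 1.42.0, limma 3.58.1 (voom), known bovine miRNAs alone, the replicate block and leaving out each library.

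The 8 members, the lists and the rule for named genes (all members, enzymes of the chain, every called gene of the pathway lists, and SREBF1, SCAP, INSIG2 and miR-33) were chosen with earlier results of these data known. Some further genes of the lists were named after their values were seen. A few pathway genes were left out of the lists and are not reported here. EBSeq, which the study used, was not run. No promoter, protein or transcript length was used, so levels are not compared between genes by length.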

Additional observations from a re-analysis of the deposited data

How the results depend on the processing

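Under total counts SREBF2 was at −0.0007 and FDFT1 at −0.1157, the uptake list had 2 genes called lower and the other mevalonate branches 1. Of all 17752 genes tested, 2006 were called lower under that scaling. The edgeR exact test with an assumed BCV of 0.2 between pools called 368 genes higher and 762 lower, with 2 members (INSIG1 and SQLE) and 1 other chain enzyme. With a BCV of 0.4 it called 52 and 93, with 0 members (INSIG1 adjusted p = 0.0873), 0 other chain enzymes, 0 uptake genes lower and 0 oxysterol genes lower. With no fold threshold 3535 genes were higher and 3254 lower, with 7 members higher, 5 other chain enzymes higher and 1 lower, 4 sensing genes higher, 1 uptake gene higher and 4 lower, 1 branch gene higher and 1 lower, and 1 oxysterol gene higher and 6 lower.

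For miRNAs, DESeq2 called 71 sequences higher and 54 lower, and limma-voom 58 and 54. The edgeR test called 1 sequence higher and 0 lower under total counts (298 at an unadjusted p under 0.05). It called 34 and 36 with no filter, and 39 and 36 among known bovine miRNAs alone. Leaving out a library gave 20 to 110 higher and 6 to 45 lower. miR-33b was at −2.06 under total counts (edgeR adjusted p = 0.0723) and −1.66 with no filter (0.0649), and from −1.996 to −1.05 when a library was left out. When a library was left out miR-33a ranged from −1.39 to −0.82, and under total counts it was at −1.66. The replicate numbers are shared by label only, and deviations of same-numbered libraries had r = 0.304. With the replicate block 133 sequences were called higher and 119 lower, and miR-33a was called at −1.19 (edgeR adjusted p = 0.0207). The causes of these shifts were not tested.

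The spread between mRNA pools was not measured, with 1 library per group, and the assumed BCV stands in for it. Between miRNA libraries of the same group the common BCV was 0.339 (edgeR). Whether that value carries over to the mRNA pools was not tested. SQLE and IDI1, with 35 and 75 counts in bulls, had the widest intervals of the 8.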
